A study of Mus musculus with 13 samples.

Results

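Foxa1, Foxa2, Foxa3, Hnf4a, Cebpa, Cebpb, Onecut1 and Nr5a2 encode the transcription factors that set up and keep the hepatocyte identity of liver cells. They were taken by gene symbol from the table deposited for the mouse liver, and all 8 were among its 11779 genes. The table compares 2 groups of 3 Balb/c livers collected on day 5. The Liver LL35 ASO group had received a mix of antisense oligonucleotides (ASOs) against the long non-coding RNA LL35, also known as Falcor, and the Liver Luc ASO group had received a control ASO against firefly luciferase. In both groups the ASOs carried GalNAc, a sugar that hepatocytes take up through a surface receptor, so no group was free of a GalNAc-ASO. The sources used here give neither age nor sex of these mice, and the RNA came from whole tissue and not from sorted hepatocytes. The libraries of AML12 cells, a mouse hepatocyte line, were not analysed here.

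The value analysed is the mean normalized count of each gene, a single number that the authors averaged over the liver libraries of both groups. It holds no value for a single mouse. Therefore the levels below describe the liver under a GalNAc-ASO of either kind, no spread between mice is known, and no difference between LL35 ASO and Luc ASO was computed. The depth of each library is unknown, and no interval or lower limit can be given for a level. Each gene's level was divided by the length of its exons in kilobases before genes were set side by side, since a longer transcript yields more reads. In bulk tissue, fewer cells of a type and less RNA per cell cannot be told apart.

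Hepatocyte identity rests on a small circuit of factors that bind each other's genes and the same liver enhancers. The Foxa proteins carry a forkhead domain, with which they can bind DNA in closed chromatin and open it for others. Hnf4a is the nuclear receptor on which a large part of hepatocyte gene expression depends. The C/EBP proteins are leucine zipper factors, Cebpa linked to mature metabolic functions and Cebpb to the acute phase and to regeneration. Onecut1, or HNF6, is a cut-homeodomain factor of liver and bile duct development. Nr5a2, or LRH-1, is a nuclear receptor of bile acid and cholesterol genes. LL35 is of interest beside Foxa2 because of where it lies. In GENCODE release M21, its gene 9030622O22Rik was on the same strand of chromosome 2 as Foxa2, downstream of it, with a gap of 2674 bases and 0 genes between. The gene of LL35 is not among the rows analysed here, so neither its level nor its knockdown was measured in this table.

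The windows around the annotated start sites are shown first for the 3 Foxa genes, since these close paralogs stood at unequal levels, and for both starts of Hnf4a, since 1 gene-level value sums the transcripts of both. The sequences are RefSeq promoter windows on build GRCm38.p6, from 250 bases before the start to 50 bases after it, written along the strand of the gene. All 8 genes matched such a window, and 12 windows were found in all. Capitals mark the letters of a searched motif on either strand. The Foxa1 window lies at chr12:57546062-57546361, minus strand. The Foxa2 window is the most upstream of its 3 starts, at chr2:148046920-148047219, minus strand. The Foxa3 window lies at chr7:19023490-19023789, minus strand. Hnf4a start 1, the upstream one, lies at chr2:163506607-163506906, plus strand, and start 2 at chr2:163546905-163547204, plus strand.

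Foxa1: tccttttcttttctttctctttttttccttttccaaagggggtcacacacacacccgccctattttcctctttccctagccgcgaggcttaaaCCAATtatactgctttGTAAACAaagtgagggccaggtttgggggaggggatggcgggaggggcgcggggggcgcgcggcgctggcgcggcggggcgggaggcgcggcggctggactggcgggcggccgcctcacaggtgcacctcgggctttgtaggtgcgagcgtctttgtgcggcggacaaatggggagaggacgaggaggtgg
Foxa2 start 1: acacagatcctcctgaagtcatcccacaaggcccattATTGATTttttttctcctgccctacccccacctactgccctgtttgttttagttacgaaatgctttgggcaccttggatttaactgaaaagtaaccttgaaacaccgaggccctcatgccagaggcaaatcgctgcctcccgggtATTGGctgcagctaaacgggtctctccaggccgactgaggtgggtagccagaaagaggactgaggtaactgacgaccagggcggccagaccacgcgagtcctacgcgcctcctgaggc
Foxa3: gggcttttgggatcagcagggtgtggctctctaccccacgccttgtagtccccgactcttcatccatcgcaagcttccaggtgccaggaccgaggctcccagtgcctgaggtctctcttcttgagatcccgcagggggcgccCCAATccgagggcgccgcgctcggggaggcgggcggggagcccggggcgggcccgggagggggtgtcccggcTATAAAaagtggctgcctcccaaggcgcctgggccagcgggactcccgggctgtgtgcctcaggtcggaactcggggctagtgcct
Hnf4a start 1: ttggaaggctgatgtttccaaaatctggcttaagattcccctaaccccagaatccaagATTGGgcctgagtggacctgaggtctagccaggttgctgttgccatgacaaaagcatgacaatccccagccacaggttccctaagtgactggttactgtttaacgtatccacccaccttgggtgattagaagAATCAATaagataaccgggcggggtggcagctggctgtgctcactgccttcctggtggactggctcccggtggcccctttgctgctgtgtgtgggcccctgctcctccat
Hnf4a start 2: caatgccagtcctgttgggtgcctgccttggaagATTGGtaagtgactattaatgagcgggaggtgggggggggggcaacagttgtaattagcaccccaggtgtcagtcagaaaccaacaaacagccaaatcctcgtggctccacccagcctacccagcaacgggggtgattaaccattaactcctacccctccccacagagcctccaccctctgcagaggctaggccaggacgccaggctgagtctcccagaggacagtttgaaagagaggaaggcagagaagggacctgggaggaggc

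Hnf4a had by far the highest level of the 8 factors. Its mean normalized count was 12312 over 4828 exon bases, which gives 2550 per kilobase of exon. At this level 98.5% of the 11754 listed genes with an exon length lay below it, and 170 lay above. It stood 49.5 times above the median listed gene, whose level was 51.5 per kilobase. Among 27 other listed hepatocyte transcription factors, none had a higher level. The next was Atf5, a bZIP factor, with 2055 per kilobase. Hnf4g, the paralog of Hnf4a, is not among the listed genes. The lowest mean normalized count in the table was 15.6, but the rule by which genes were listed is not known here. Absence of a gene therefore gives no level for it.

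The 2 C/EBP genes followed, close to each other per kilobase. Cebpa reached a mean normalized count of 3214, or 1219 per kilobase. Cebpb reached 1729, or 1150 per kilobase. The level of Cebpa was therefore 1.06 times that of Cebpb, a gap that cannot be set against a spread between mice. Their mean normalized counts lay further apart, and the exons of Cebpa cover 2636 bases against 1504 for Cebpb. Of the listed genes, 97.1% lay below Cebpa and 96.9% below Cebpb.

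Relatives of the C/EBP family were listed at much lower levels. Cebpg, a partner in C/EBP dimers, had 189 per kilobase, Cebpd, which responds to acute inflammation, 51.0, and Ddit3, the stress factor CHOP, 39.1. Cebpe, a factor of granulocytes, is not among the listed genes. Of the summed level per kilobase of the 5 listed family genes, Cebpa made up 46.0% and Cebpb 43.4%. This division depends on the length used. Per kilobase of coding sequence, Cebpa made up 38.9%, Cebpg 30.9% and Cebpb 25.4%, and only 450 of the 5621 exon bases of Cebpg were coding.

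**Figure D1:**
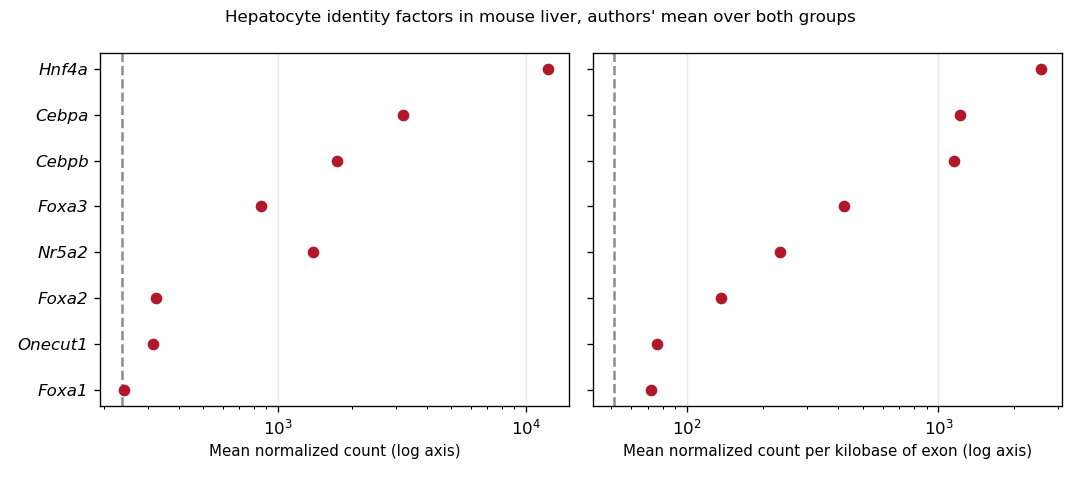
Mean normalized count (left) and mean normalized count per kilobase of exon (right) of the 8 factors, on log axes, with 1 point a gene for the authors' mean over both liver groups and a dashed line at the median listed gene. Hnf4a stands alone at the top of both panels with 12312 and 2550, Foxa1 stands last with 239 and 71.9, and Foxa3 and Nr5a2 change places between the panels.

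The 3 Foxa genes were not equal. Foxa3 reached a mean normalized count of 858, or 421 per kilobase, with 91.9% of listed genes below it. For Foxa2 the mean normalized count was 324, or 137 per kilobase, with 76.4% of listed genes below it. Of the places of the 3 Foxa genes, that of Foxa2 depends most on the length used, with 58.7% of listed genes below it without division by length and 59.3% per kilobase of coding sequence. Foxa1 was lowest with 239, or 71.9 per kilobase, with 59.7% below it. Foxa3 thus stood 3.08 times above Foxa2, and Foxa1 reached 0.525 of the level of Foxa2. Of the level summed over the 3 genes, Foxa3 made up 66.9%, Foxa2 21.7% and Foxa1 11.4%. Without division by length these shares were 60.4%, 22.8% and 16.8%, and per kilobase of coding sequence 66.8%, 19.2% and 14.0%, in the same order.

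Exact stretches of 50 bases shared between the Foxa paralogs were looked for in the transcripts. This length was set here, and stretches alike but for a mismatch were not searched. The coding sequences of Foxa1 and Foxa2 were identical at 75.8% of aligned bases, those of Foxa2 and Foxa3 at 72.3%, and those of Foxa1 and Foxa3 at 71.6%. In the most alike stretch of 300 aligned bases, identity rose to 89.3% for Foxa1 and Foxa2. Even so, no stretch of 50 bases in the transcripts of any of the 3 genes occurred in a transcript of another gene, on either strand. None of their exons overlapped those of another gene in GENCODE release M21. The other close pair, Cebpa and Cebpb, was identical at 72.3% of aligned coding bases and shared no stretch of 50 bases.

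Nr5a2 reached a mean normalized count of 1386, or 235 per kilobase, with 85.9% of listed genes below it. Its exons cover 5899 bases, the longest of the 8, and its coding sequence 1680. Per kilobase of exon it stood below Foxa3, which was 1.79 times higher, whereas its mean normalized count was above that of Foxa3. Per kilobase of coding sequence, the levels were 825 for Nr5a2 and 810 for Foxa3. The order of these neighbours therefore depends on the length used. Nr5a1, the paralog of Nr5a2 known from steroidogenic tissues, is not among the listed genes.

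Onecut1 reached a mean normalized count of 313, or 76.2 per kilobase, with 61.7% of listed genes below it and 1.06 times the level of Foxa1. This level carries a limit of the gene model. In GENCODE release M21, 2171 of the 4113 exon bases of Onecut1 also belong to Gm20649, a gene on the same strand, and 52.3% of the 50-base stretches of Onecut1 transcripts occurred in transcripts of Gm20649. A single stretch of the 4062 was shared with the paralog Onecut3. Counting with STAR leaves out a read that falls on exons of 2 genes. Gm20649 is not among the listed genes. Over the 1942 bases that are its own, the level of Onecut1 would be 161 per kilobase, above Foxa2. Whether the annotation used by the authors held this overlap was not tested.

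Its paralog Onecut2 was higher on each scale computed. Onecut2 had a mean normalized count of 3767 over 16234 exon bases, or 232 per kilobase, with 85.7% of listed genes below it. It made up 75.3% of the level per kilobase summed over both genes, and 59.0% when only unshared exon bases were used. Per kilobase of coding sequence its share was 91.7%. Onecut3 is not among the listed genes.

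**Figure D2:**
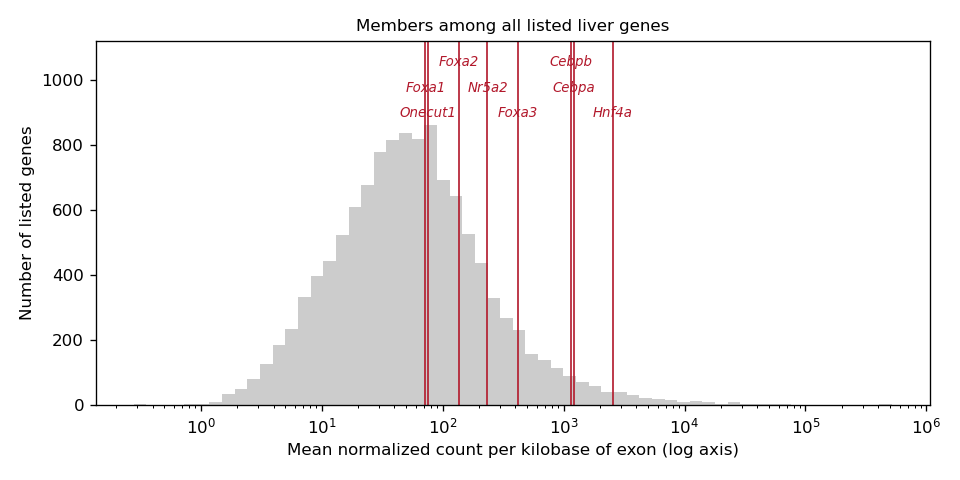
Distribution of the mean normalized count per kilobase of exon (log axis) over the 11754 listed genes with an exon length, as the number of genes in each bin, with a red line at each of the 8 factors. All 8 lines lie above the median of 51.5, from Foxa1 at 71.9 to Hnf4a at 2550.

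Each of the 8 factors lay above the median listed gene per kilobase, and 4 of them (Hnf4a, Cebpa, Cebpb and Foxa3) lay in the top 10% of listed genes. Foxa3 left the top 10% on the other scales, with 81.9% of listed genes below it without division by length and 85.3% per kilobase of coding sequence. On those scales, in the same order, Foxa1 came close to the median, with 50.5% and 50.4% of listed genes below it. For Onecut1 these shares were 57.8% and 58.2%. The highest level was 35.5 times the lowest. The order per kilobase was Hnf4a, Cebpa, Cebpb, Foxa3, Nr5a2, Foxa2, Onecut1 and Foxa1. Neighbours in it could not be tested against their spread, and the closest were Cebpa and Cebpb, and Onecut1 and Foxa1. Cebpb has a further limit, since 312 of its exon bases lie opposite exons of Tmem189, a listed gene. The library kit keeps strand, but whether the counts did is not given in the sources used here. Divided by the bases free of any other gene on either strand, the whole counts would give Cebpb 1451 per kilobase and Cebpa 1244. This would turn the order of the pair, if reads on the shared bases had been left out of the counts.

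Beside other transcription factors of the hepatocyte, the 8 factors stood from the first place down to the lower part of the order, with 4 other factors below Foxa1. The 27 analysed here lay between 35.0 and 2055 per kilobase, and 17 of them stood above Foxa2, against 23 without division by length and 22 per kilobase of coding sequence. Their median was 323, that of Tef, and the next lower gene was Dbp with 177, so that the median of this list sits at a gap. The median of the 8 was 328. They are regulators such as Rxra, the shared partner of many nuclear receptors, Ppara, the receptor of fatty acid oxidation, and Nr1h4, the bile acid receptor FXR. The highest were Atf5, Creb3l3 with 1252 and Rxra with 1249 per kilobase, and the lowest were Gata4 with 61.9, Nr2f2 with 58.4 and Gata6 with 35.0.

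In the joint order of 35 factors per kilobase of exon, Hnf4a was first, Cebpa and Cebpb had places 5 and 6, and Foxa3 place 15. The places below Hnf4a depend on the length used. Of the 27 other factors, 3 stood above Cebpb per kilobase of exon, 10 without division by length and 7 per kilobase of coding sequence. For Nr5a2 these counts were 14, 11 and 13, and for Hnf4a 0 on each scale. The neighbours that follow are per kilobase of exon. Cebpa and Cebpb stood between Rxra and Nr1i3, the xenobiotic receptor CAR, which had 1148 per kilobase. Foxa3 stood between Nr1h3, the oxysterol receptor LXR alpha, with 425 and Nr0b2, the repressor SHP, with 414. Nr5a2 had place 19, between Tef with 323 and Dbp with 177, both PAR bZIP factors of the clock output. Foxa2 had place 23, beside Hlf with 156 and Hhex, a homeobox factor of early liver, with 136 per kilobase. Onecut1 and Foxa1 had places 30 and 31, between Nfil3 with 88.4 and Zhx2 with 63.0.

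**Figure D3:**
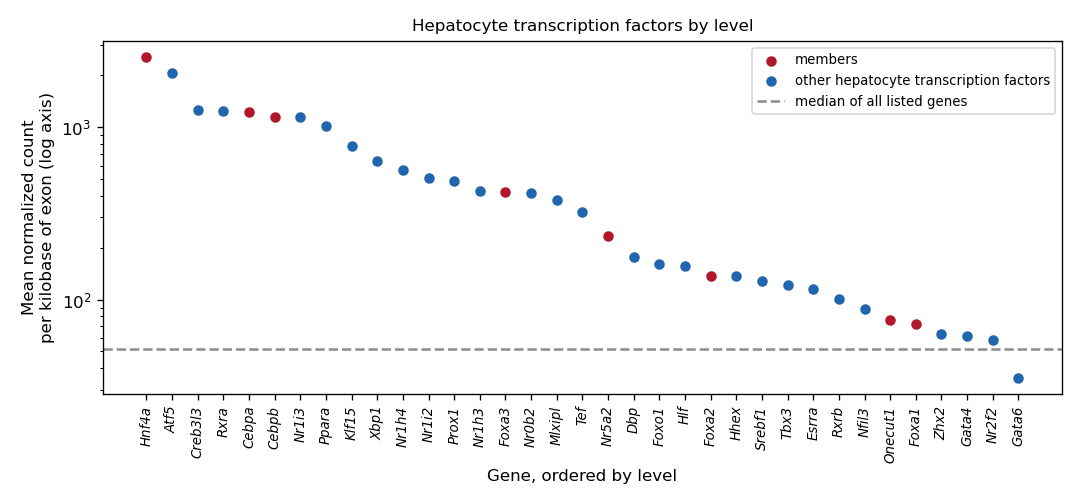
Mean normalized count per kilobase of exon (log axis) of the 8 factors (red, members) and 27 other hepatocyte transcription factors (blue), ordered by level, with the median listed gene as a dashed line. Hnf4a leads with 2550, Foxa2 with 137 lies in the lower part, and Gata6 is the only 1 of these 35 below the line.

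The further forkhead, C/EBP and Onecut genes in a list of 26 relatives were lower as a group. Of these 17 were listed, with a median of 68.4 per kilobase. Per kilobase of exon 3 of them stood above Foxa2, namely Onecut2, Cebpg and Foxo3, an insulin-regulated forkhead factor with 177. This count depends on the length used, with 10 of 17 above Foxa2 without division by length and 9 per kilobase of coding sequence. The lowest were Foxj3 with 26.0, Foxp2 with 9.79 and Foxf1, a forkhead factor of mesenchyme, with 9.19. Foxm1, a forkhead factor of dividing cells, and Foxj1, one of ciliated cells, are not among the listed genes. Foxo1, a forkhead gene kept in the list of other hepatocyte factors and not counted here, had 160 per kilobase, above Foxa2.

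The label of the tissue was checked with genes that hepatocytes make for export or for metabolism. Of 28 such genes, looked up by symbol only, Tf was not found. Whether it stands under another symbol was not tested. The other 27 were listed, all above the median listed gene, with a median level of 7097 per kilobase. Of these, 21 stood above Hnf4a, against 15 without division by length and 16 per kilobase of coding sequence. Alb, which encodes albumin, was the highest listed gene of the whole table with 519843 per kilobase, followed by Apoa2 with 66444 and Apoa1 with 65554, both apolipoproteins of HDL. The lowest of the list were F9, a clotting factor, with 986, Abcb11, the bile salt pump, with 897 and Cyp7a1, the rate-limiting enzyme of bile acid synthesis, with 757 per kilobase. All 27 lay above Nr5a2 on each of the 3 scales, and 23 lay above Cebpb per kilobase of exon, all of them without division by length.

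Several of the factors are also made by other liver cells, Cebpb by macrophages and Foxa2 and Onecut1 by bile duct cells, so markers of those cells are given beside them. Of 10 cholangiocyte markers 3 were listed, and the defining keratins Krt19 and Krt7 and the adhesion molecule Epcam were not among the listed genes. Spp1 had 91.9 per kilobase, Sox9 9.94 and Prom1 5.12. All 10 Kupffer cell markers were listed, from 55.4 for Timd4 to 791 for the lectin Clec4f, with a median of 241. After Clec4f came Cd5l with 632 and C1qa with 442 per kilobase, and Marco with 121 and Adgre1 with 59.9 stood next to Timd4 at the lower end. The part that these cells had in the level of Cebpb, Foxa2 or Onecut1 was not tested.

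All 10 endothelial markers were listed too, with a median of 126 per kilobase, from Clec4g with 289, Stab2 with 248 and Stab1 with 183 down to Pecam1 with 57.7, Tek with 55.5 and Lyve1 with 41.4. The 10 stellate cell markers had a median of 47.9, from Dcn with 265, Colec11 with 226 and Rgs5 with 194 down to Pdgfrb with 27.9, Col1a1 with 18.2 and Des with 13.8. The levels of Foxa1, Foxa2, Foxa3, Onecut1 and Nr5a2 all lay below the 791 per kilobase of Clec4f, the highest of these markers, and those of Hnf4a, Cebpa and Cebpb above it. For Cebpb this depends on the length used. Without division by length its 1729 lay below the 1954 of Clec4f and below 3 markers of the other lists, among them Stab2 with 2171, whereas per kilobase of coding sequence none of the listed markers stood above it.

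**Figure D4:**
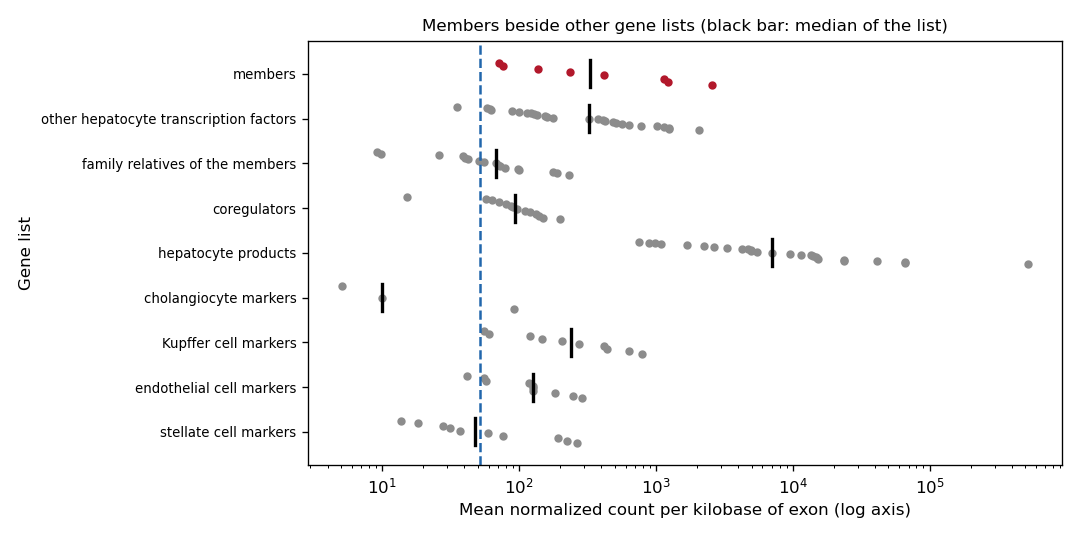
Mean normalized count per kilobase of exon (log axis) of each listed gene in 9 gene lists, with a black bar at the median of each list and a dashed line at the median of all listed genes. The 8 factors (red, members) have a median of 328, the hepatocyte products 7097, and the 3 listed cholangiocyte markers 9.94.

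The start windows of the 8 genes were searched for letters bound by factors of the same circuit, as a description of the windows printed above and of the others. The CCAAT box and TATAAA, the letters of a TATA box, were searched as well. These are general promoter elements and not sites of the circuit. The forkhead letters TGTTTAC or TATTTAC were in 1 of the 12 windows, that of Foxa1, against 4.55% of the 11977 windows of listed genes and 6.55% of all 32841 windows. The letters ATTGATT, of the kind bound by Onecut1, were in the windows of Foxa2 start 1 and Hnf4a start 1, 2 of 12, against 1.74% of listed windows and 2.86% of all.

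The C/EBP letters TTGCNNAA were in 1 window, Nr5a2 start 2, against 8.88% of listed windows and 10.8% of all. CAAAGTC, a core of HNF4 sites, was in 0 windows of the 8 genes, against 4.01% of listed windows and 4.44% of all. CAAGGTC, a site of NR5A2, was in 0 as well, against 3.39% and 3.96%. The CCAAT box, CCAAT, was in 6 windows of 5 genes, against 37.4% of listed windows. The letters TATAAA were in 5 windows of 5 genes, against 7.67% of listed windows and 13.6% of all. Counted from 0 at the annotated start, those of Cebpa, at -30 to -25, and of Foxa3, at -36 to -31, were the 2 closest upstream of a start, and that of Cebpb lay after its start. Both strands were searched, and no motif of the list overlapped another in these windows.

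The windows also differed in base composition. The Cebpb window had 80.7% G and C with 50 CpG, and that of Onecut1 73.0% with 38. Hnf4a had only 4 CpG in each of its windows, at 54.0% and 57.3% G and C, and Nr5a2 start 1 had 2 at 42.0%. The ratio of observed to expected CpG was 0.183 and 0.163 in the windows of Hnf4a, against 0.744 in the median window of listed genes. Nr5a2 had 0.152 and 0.412 at its 2 starts, Foxa2 from 0.548 to 0.767 at its 3, and Foxa3 0.619. The windows of Cebpa, Foxa1, Onecut1 and Cebpb had 0.853, 0.929, 0.951 and 1.026. The ratio did not follow the order of the levels, since Cebpa and Cebpb, next to Hnf4a in level, had high ratios, as had Foxa1 and Onecut1 at the lower end.

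**Figure D5:**
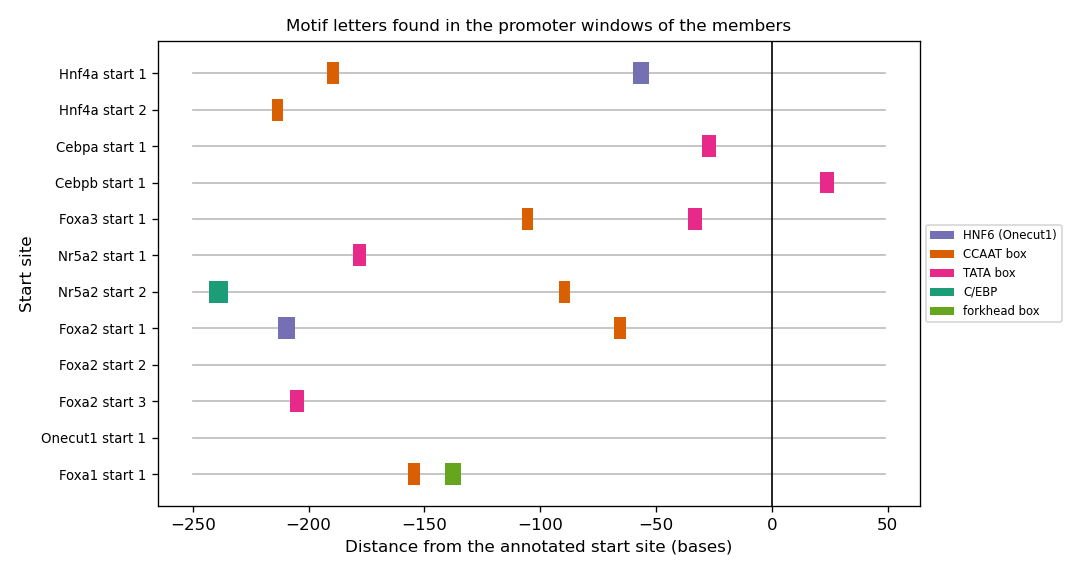
Position of the searched motif letters (coloured blocks) in the 12 RefSeq start windows of the 8 genes, as distance from the annotated start in bases, with each start as a row and the start site as a black line. Foxa2 start 1 and Hnf4a start 1 hold the letters for HNF6, and the windows of Foxa2 start 2 and Onecut1 hold none of the letters.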

How the data were processed

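RNA-seq libraries of 3 livers with LL35 ASO and 3 with Luc ASO stand behind the deposited table. Per the labels and the study's methods, STAR 2.5.3a was used by the authors for alignment and for gene counts on an Ensembl annotation, and DESeq2 with RLE scaling for normalization. The genome build and annotation release are not given in the sources used here. The deposited mean normalized count, a signal never below 0, is a single value per gene averaged by the authors over the compared libraries. The other columns of the authors' table hold their comparison (fold change, its standard error, statistic, p-value and adjusted p-value) and were not used, so no test between groups was made.

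Members and gene lists were chosen with earlier results of these data known. Named genes are the 8 factors, the 3 highest and 3 lowest listed genes of each of the 8 other lists, relatives in the 5 gene families and the factors next to each of the 8 in level. Other genes were named after their values were seen. The genes of the lists were looked up by symbol, and why a gene is not listed was not tested. Levels were divided by the union of exons in GENCODE release M21, which matched 11754 genes by identifier. Alternatives used no length, the longest coding sequence, unshared exon bases, a minimum mean of 50 and protein-coding genes. Coding sequences were aligned globally with Biopython 1.88, in place of proteins, which were not used here. Stretches of 50 bases were compared over all GENCODE transcripts. Motifs were searched in RefSeq windows. Some genes and motifs are not reported here. Python 3.11.15 and numpy 2.4.6 were used. The exon union and overlap, the share of genes below a level and the motif search were tested on simulated data. The other steps were not.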

Additional observations from a re-analysis of the deposited data

How the results depend on the processing

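The table holds a single mean per gene, so no library could be left out. No paired analysis was possible because the table gives no value for a single library. The median share of listed genes below a factor was 88.9%. It was 85.7% without division by length, 85.5% per kilobase of coding sequence, 86.9% among genes whose mean was 50 or more and 88.3% over exon bases free of other genes on either strand. Over bases free on the same strand it was 88.8%, and among protein-coding genes 89.0%. The highest factor was 35.5 times the lowest per kilobase of exon, 51.5 times without division by length and 50.8 times per kilobase of coding sequence. Of the 8 places in the order, 6 stayed without division by length, where Nr5a2 passed Foxa3, and 6 per kilobase of coding sequence. Over exon bases free of other genes, an alternative chosen after seeing the data, 6 stayed on the same strand, where Onecut1 passed Foxa2, and 4 on either strand, where Cebpb also passed Cebpa. In this alternative the whole count was divided by the unshared length, since no count over those bases alone was available.

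Without division by length, the median of the 8 factors was 4.78 times that of all listed genes (6.37 per kilobase). For the other lists these ratios were 4.55 (6.28) for other hepatocyte transcription factors, 1.47 (1.33) for family relatives, 4.04 (1.82) for coregulators, 67.4 (138) for hepatocyte products, 0.175 (0.193) for cholangiocyte, 1.84 (4.68) for Kupffer cell, 2.58 (2.45) for endothelial and 1.44 (0.930) for stellate cell markers. The position of the stellate markers against the median listed gene therefore turned with the scale. The order of the Kupffer cell, endothelial and coregulator lists among each other turned as well.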

Other observations

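Coregulators, the proteins that the 8 factors recruit to DNA, were all listed, and 13 of 14 lay above the median listed gene. Their median was 93.7 per kilobase of exon, below that of the 8 factors. The corepressor Ncor1 was the highest with 198, followed by the corepressor Tle1 with 150 and the chromatin remodeler Smarca4 with 139. The lowest were Ppargc1a, a coactivator of Hnf4a in fasting, with 63.0, Ncoa1, a nuclear receptor coactivator, with 57.3 and Tle3, a relative of Tle1, with 15.3. Per kilobase of exon 0 of the 14 stood above Nr5a2 and 3 above Foxa2. Without division by length 3 stood above Nr5a2 (Ncor1, Crebbp and Ep300) and 13 above Foxa2, and per kilobase of coding sequence 0 and 5, so that these places turn with the scale. Crebbp and Ep300, acetyltransferases of active enhancers, had 132 and 97.4 per kilobase.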
